A study of Mus musculus with 10 samples.

Results

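The 10 genes described here belong to the circadian clock and to its direct output, and were read in mRNA-seq libraries of MC3T3-E1 cells, a mouse osteoblast precursor line, some of them exposed to β-ecdysterone, a plant steroid. The members were fixed by gene symbol (Arntl, Clock, Per2, Per3, Cry1, Cry2, Dbp, Tef, Hlf and Bhlhe41), and all 10 were found among the 29583 genes and loci of the deposited table. Third-generation MC3T3-E1 cells were kept in standard medium for 5 or 10 days at β-ecdysterone doses of 0, 100, 150 or 200 μM, with 1 library per dose and day, so the 6 treated libraries (3 per day) were set against 2 libraries at 0 μM. A further 2 libraries, A-5 and B-4, carry the label untreated without a dose or a day and stayed outside the main comparisons. All libraries carry the strain label C57BL/6 and the age label newborn, and the labels give no engineered allele. The labels name the source as bone marrow mesenchymal stem cells while the titles name MC3T3-E1, a clonal line from skull bone. The hour of harvest is not given in the sources used here.

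The circadian clock of mammalian cells is a transcriptional feedback loop. Arntl (BMAL1) and Clock form an activator that binds E-box elements and drives the Per and Cry genes, whose proteins return to the nucleus and repress that activator. Bhlhe41 (DEC2) and its relative Bhlhe40 (DEC1) compete for the same E-boxes. A second layer runs through the D-box: Dbp, Tef and Hlf, the PAR bZIP factors, activate genes that hold this element, and Nfil3 (E4BP4) represses them. Bone and osteoblasts have a working clock, and in culture the cells of a dish keep time together only after a synchronizing stimulus such as serum or a glucocorticoid.

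Library totals ranged from 27108562 to 58218009 counts. Of the untreated libraries, B-4 stood apart from A-5: Tsc22d3 (GILZ), a clock-controlled gene that glucocorticoids also induce, read 1277 CPM (the normalised read count, relative to the scaled library total) in B-4 and 111 CPM in A-5, beside 85.4 and 113 CPM at 0 μM and 1109 to 1376 CPM in the treated libraries. For this gene B-4 went against its label, which is therefore in doubt, and a value set against B-4 may not be a comparison with untreated cells. Other genes were split. B-4 lay below all treated libraries for Klf15 (0.167 CPM against 1.33 to 3.15), Sp7 (10.5 against 52.6 to 134) and Ibsp (9.09 against 73.3 to 810). It lay within the treated range for Runx2 (195 CPM against 191 to 261) and Grem1 (12.0 against 10.5 to 17.8), so the label remains unsettled. Where the choice of control changed a call, the fit against A-5 alone and the fit against B-4 alone are given below, each with 1 control library that was assumed to vary as the treated ones do. Osteoblast lineage markers (8 genes, Col1a1 to Spp1, of which 4 were called higher) summed to 21971 and 26411 CPM at 0 μM and to 16770 to 33946 CPM in treated cells. Their sum came mostly from Col1a1 and Col1a2. Within this list Sp7 averaged 5.54 CPM at 0 μM and 81.4 CPM in treated cells. Spp1 was below both 0 μM values in all 6 treated libraries (means of 1723 and 1225 CPM). The 5 marrow stroma markers summed to 577 and 662 CPM at 0 μM and to 288 to 353 CPM in treated cells, mostly from Cxcl12, with Lepr called higher and Grem1 called lower. Macrophage and blood markers summed to 10.3 and 11.03 CPM at 0 μM and to 3.51 to 6.05 CPM in treated cells (1 of 2 tested called lower), and the blood gene Hbb-bs was at 0. Adipocyte markers summed to 0.0988 and 0.190 CPM and to 0.702 to 1.59 CPM (1 of 2 tested called higher), and muscle markers to 0.221 and 0.336 CPM and to 1.0002 to 2.21 CPM (1 of 2 tested called higher). The 5 proliferation markers were all called lower, summed to 1637 and 1809 CPM at 0 μM and to 412 to 876 CPM in treated cells, 1075 CPM in A-5 and 86.9 CPM in B-4, and the part of these shifts in the results below was not tested. In bulk RNA, fewer cells of a kind and less RNA per cell cannot be told apart.

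Promoter sequences are shown for Per3, Bhlhe41 and Cry1, since Per3 and Bhlhe41 were among the members that changed with treatment and Cry1, which did not pass the test, holds the same E-box as Bhlhe41. They come from RefSeq (GRCm38.p6), are written 5′ to 3′ on the minus strand, on which all 3 genes lie, and end before the first annotated exon base. Capitals mark the D-box TTATGTAA in Per3, the E-box CACGTG in Bhlhe41 and Cry1, and in Cry1 also AACGTG, which is the E-box variant CACGTT read from the other strand. The stretches are chr4:151044666-151044915 (Per3), chr6:145865559-145865670 (Bhlhe41) and chr10:85185065-85185304 (Cry1).
Per3: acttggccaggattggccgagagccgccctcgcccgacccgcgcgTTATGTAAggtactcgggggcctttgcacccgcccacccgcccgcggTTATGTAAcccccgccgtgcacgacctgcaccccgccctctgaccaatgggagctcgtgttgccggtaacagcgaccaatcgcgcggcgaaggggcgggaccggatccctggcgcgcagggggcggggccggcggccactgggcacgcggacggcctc
Bhlhe41: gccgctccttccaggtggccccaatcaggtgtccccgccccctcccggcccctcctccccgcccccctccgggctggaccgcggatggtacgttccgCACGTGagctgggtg
Cry1: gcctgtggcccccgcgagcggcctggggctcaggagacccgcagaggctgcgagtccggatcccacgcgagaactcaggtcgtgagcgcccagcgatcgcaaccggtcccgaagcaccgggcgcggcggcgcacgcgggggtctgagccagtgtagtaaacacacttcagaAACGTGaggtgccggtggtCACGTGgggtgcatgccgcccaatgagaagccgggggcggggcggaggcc

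RefSeq windows from 250 bases before to 50 bases after a gene start were found for 9 of the 10 members (13 windows), and not for Per2. The motifs were searched on both strands and describe letters only. The E-box CACGTG lay in the windows of Bhlhe41, Cry1 and Tef and in 7.15% of all 32851 windows. The variant CACGTT lay in Cry1 and Cry2 and in 4.68% of all windows. The D-box, as TTATGTAA or TTATGCAA, lay in Per3 alone among the members and in 1.66% of all windows. Per3 held it at 2 places, at -205 to -198 and -158 to -151 bases from the start, and at least 2 D-boxes were found in 16 of all windows (0.0487%). The nuclear receptor element AGGTCA lay in Arntl and Clock (16.3% of all windows), the cAMP element TGACGTCA in Hlf (1.79%), and AGAACA, part of the glucocorticoid response element, in 1 of the windows of Tef (19.0%). The window of Dbp held none of these letters. None of the motifs shares letters with another in these windows.

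**Figure D1:**
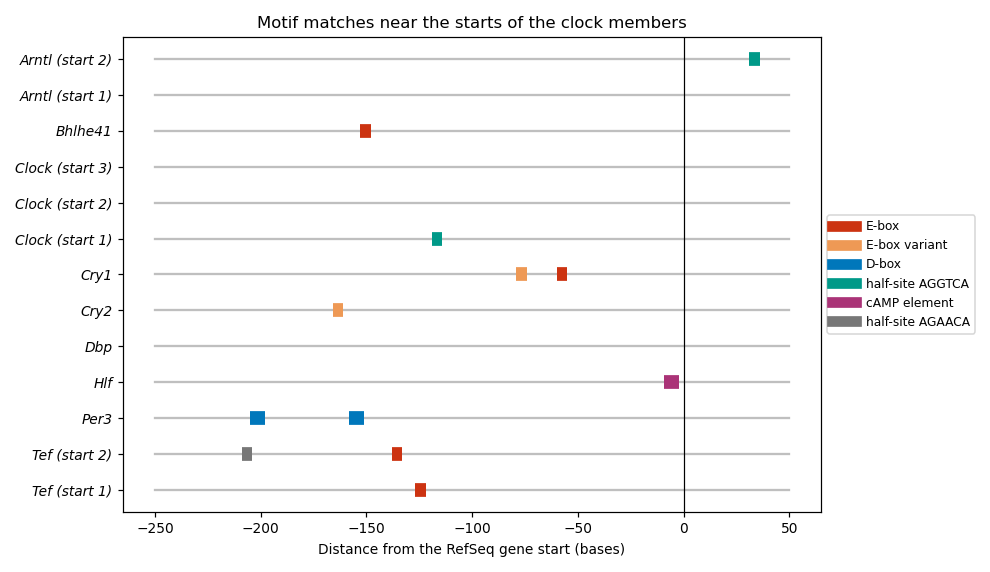
Positions of motif matches in the 13 promoter windows of 9 clock members. The x axis gives the distance from the RefSeq gene start in bases, each grey line is 1 window from 250 bases before to 50 after the start, and coloured blocks are matches on either strand. Per3 is the only member line with D-boxes, at 2 places, and Bhlhe41, Cry1 and Tef hold the E-box.

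The question of the main comparison was what β-ecdysterone did to the clock genes of these cells, over both days and all doses. Per3 and Dbp fell to 0.397 and 0.408 of their 0 μM level, Bhlhe41 rose 2.59-fold, and the core genes Arntl, Clock, Per2, Cry1 and Cry2 and the output factor Tef did not pass the test, with fitted changes between -0.11 and 0.19 on the log2 scale. Hlf sat near the detection floor. A gene was called at a change above 2-fold with an adjusted p under 0.05 in edgeR's quasi-likelihood test. By that rule 1 of the 10 members was called higher, beside 13.4% of the 16794 genes tested, and 2 were called lower, beside 5.98%. In total 3 of 10 members and 19.4% of all genes were called, so the count alone does not set the members apart. The median fitted change was -0.0037 over the members and 0.0456 over all genes.

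Per3, a period protein of the repressor limb (ENSMUSG00000028957, chr4:151003652-151044665, minus strand, GRCm38), was lower in every treated library. It read 30.4 CPM at 0 μM on day 5 and 12.9, 11.1 and 11.8 CPM at 100, 150 and 200 μM. On day 10 it read 31.2 CPM at 0 μM and 9.12, 15.1 and 13.2 CPM at these doses. The highest treated value, at 150 μM on day 10, was still below both 0 μM values, so the groups did not overlap. Treated cells averaged 12.2 ± 2.05 CPM (SD, n = 6) and cells at 0 μM 30.8 ± 0.614 CPM (SD, n = 2), and the fitted log2 fold change was -1.33 (SE 0.16, adjusted p = 0.000134). The untreated libraries read 45.4 CPM (A-5) and 19.4 CPM (B-4), both above all treated values. With A-5 alone as the control the log2 fold change was -1.88 (adjusted p = 0.000603), and with B-4 alone it was -0.65 (adjusted p = 0.07), which ended the call.

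Dbp, the D-box activator whose transcript is one of the most strongly cycling outputs of the clock in tissues (ENSMUSG00000059824, chr7:45705088-45710203, plus strand), moved the same way at a lower level. Its counts were 295 at 0 μM on day 5 against 84, 180 and 75 at 100, 150 and 200 μM, which is 5.83 CPM against 2.79, 3.01 and 2.47 CPM. On day 10 it had 177 counts (5.59 CPM) at 0 μM and 36, 124 and 109 counts (1.42, 2.33 and 2.10 CPM) at these doses. All 6 treated libraries lay below both 0 μM libraries, with a mean of 2.35 ± 0.562 CPM (SD, n = 6) against 5.71 ± 0.169 CPM (SD, n = 2). The fitted log2 fold change was -1.29 (SE 0.22, adjusted p = 0.00105). A-5 read 9.003 CPM and B-4 3.23 CPM, and the log2 fold change was -1.92 against A-5 alone (adjusted p = 0.00376) and -0.44 against B-4 alone (adjusted p = 0.418). On the log2(FPKM + 1) scale, which compresses low genes, the limma fit gave -0.86 with an adjusted p of 0.000951, short of the fold limit. Of the annotated exon bases of Dbp, 18.0% overlap Sphk2 on the opposite strand, a sphingosine kinase gene that read 22.5 to 27.2 CPM in all 10 libraries, and whether the counting used strand is not given in the sources used here.

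Bhlhe41, the E-box repressor (ENSMUSG00000030256, chr6:145858243-145865558, minus strand), went the other way. On day 5 it read 28.1 CPM at 0 μM and 61.9, 52.0 and 57.2 CPM at 100, 150 and 200 μM. On day 10 it read 22.4 CPM at 0 μM and 102, 50.7 and 79.1 CPM. All treated values were above both 0 μM values, although treated cells spread widely on day 10. The mean was 67.2 ± 20.0 CPM (SD, n = 6) against 25.2 ± 4.04 CPM (SD, n = 2), and the log2 fold change was 1.38 (SE 0.26, adjusted p = 0.0022). The untreated libraries disagreed for this gene: A-5 read 38.4 CPM and B-4 124 CPM, the highest of all 10. With A-5 and B-4 in place of the 0 μM libraries the log2 fold change was -0.28 (adjusted p = 0.653), and with them added to the 0 μM libraries it was 0.34 (adjusted p = 0.595). All treated values lay above A-5 and below B-4, with 0.82 against A-5 alone (adjusted p = 0.139) and -0.88 against B-4 alone (adjusted p = 0.0785), so the call was made against 0 μM and in none of these 4 fits. An unclassified transcript on the opposite strand, Gm43909, covers 19.0% of its annotated exon bases.

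**Figure D2:**
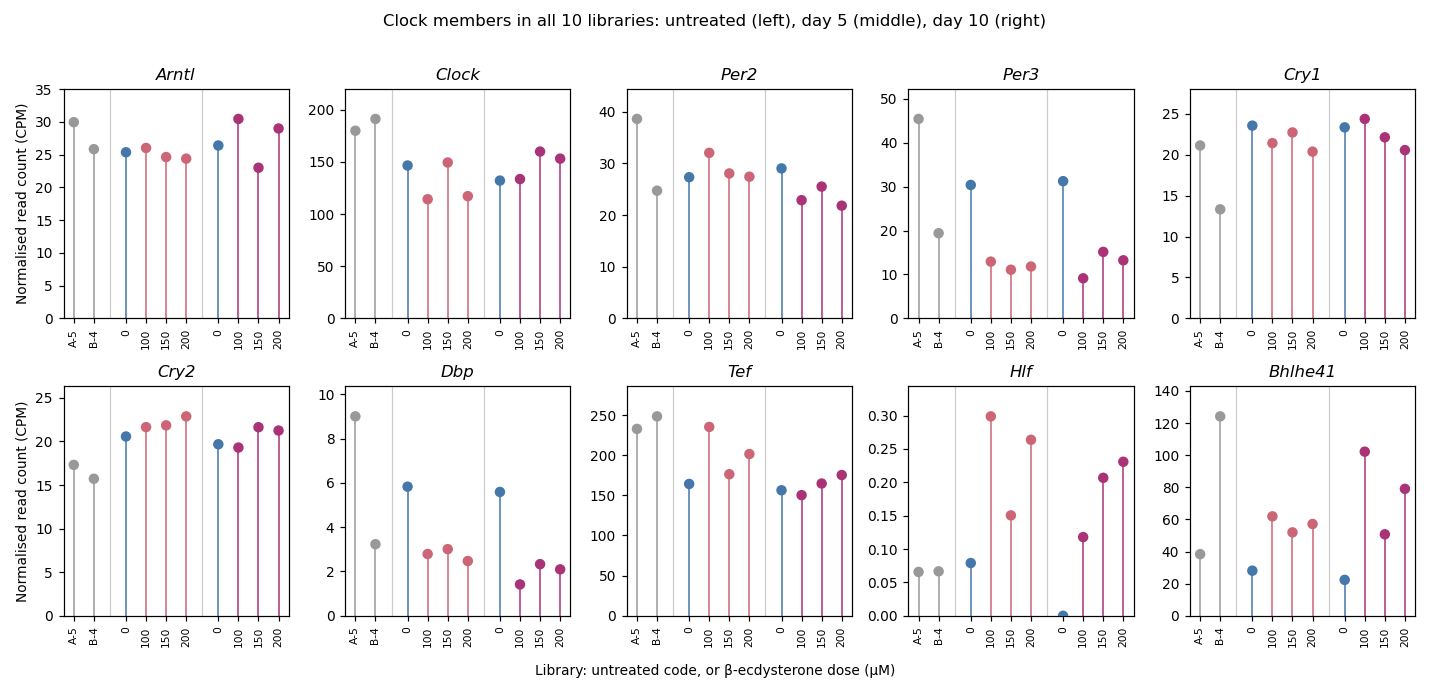
Normalised read count (CPM, y axis) of the 10 members in each of the 10 libraries (x axis: untreated codes A-5 and B-4, then the β-ecdysterone dose in μM on day 5 and on day 10). Each stem is 1 library, with untreated in grey, 0 μM in blue and treated in red (day 5) and purple (day 10), and every y axis starts at 0. Per3 and Dbp sit below both 0 μM libraries at every dose and Bhlhe41 above, while B-4 is the highest library for Bhlhe41.

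Among all genes tested, 25.7% had all 6 treated libraries below both 0 μM libraries and 27.0% had all above, so the 2 members on each side (Per3 and Dbp below, Bhlhe41 and Hlf above) do not stand out by number. Hlf, the third PAR bZIP factor (ENSMUSG00000003949, chr11:90336536-90390895, minus strand), had too few counts for a firm statement. It had 4 counts at 0 μM on day 5 and 9, 9 and 8 counts at 100, 150 and 200 μM. On day 10 it had 0 counts at 0 μM, which allows up to 0.0948 CPM (3 counts), and 3, 11 and 12 counts at these doses. The untreated libraries had 2 counts each. Its fitted log2 fold change of 2.20 (SE 0.81, adjusted p = 0.0505) depends on the prior count and is no bound. In edgeR the adjusted p was 0.0448 when only Ensembl genes were tested and 0.05 with DESeq2 size factors. It was 0.0854 in edgeR when every gene with at least 1 count was kept, 0.0618 in DESeq2 and 0.479 in limma on log2(FPKM + 1). Hlf was not called in 10 of the 12 alternatives that tested it, so its call depends on the processing.

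Neither gene of the activator pair passed the test. Arntl (ENSMUSG00000055116) read 25.4 CPM at 0 μM on day 5 and 26.0, 24.6 and 24.4 CPM with rising dose, and 26.4 CPM at 0 μM on day 10 and 30.5, 23.0 and 29.0 CPM. Its log2 fold change was 0.02, with a 95% interval from -0.24 to 0.28 (adjusted p = 0.917). Clock (ENSMUSG00000029238) read 147 CPM at 0 μM and 114, 149 and 117 CPM on day 5, and 132 CPM at 0 μM and 134, 160 and 153 CPM on day 10. Its log2 fold change was -0.02, with an interval from -0.32 to 0.27 (adjusted p = 0.894). The untreated libraries read 180 CPM (A-5) and 191 CPM (B-4) for Clock, above all other libraries. With both in place of 0 μM its log2 fold change in edgeR was -0.43 (adjusted p = 0.0607). In both genes the treated libraries lay on both sides of the 0 μM values, and the intervals leave out a 2-fold change in either direction.

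The other members of the repressor limb, Per2, Cry1 and Cry2, did not pass the test. Per2 (ENSMUSG00000055866) read 27.3 CPM at 0 μM and 32.0, 28.1 and 27.4 CPM at 100, 150 and 200 μM on day 5. On day 10 it read 29.0 CPM at 0 μM and 22.9, 25.5 and 21.8 CPM. Its values were above the 0 μM library on day 5 and below it on day 10, for a log2 fold change over both days of -0.11 (interval -0.38 to 0.16, adjusted p = 0.47). Cry1 (ENSMUSG00000020038) read 23.6 CPM at 0 μM and 21.4, 22.7 and 20.4 CPM on day 5, and 23.3 CPM at 0 μM and 24.4, 22.1 and 20.6 CPM on day 10. Cry2 (ENSMUSG00000068742) read 20.6 CPM at 0 μM and 21.6, 21.9 and 22.9 CPM on day 5, and 19.7 CPM at 0 μM and 19.3, 21.6 and 21.3 CPM on day 10. The cryptochromes were the steadiest members in treated cells, with a coefficient of variation of 6.82% for Cry1 and 5.50% for Cry2 over the 6 libraries. Their log2 fold changes were -0.10 (interval -0.32 to 0.12, adjusted p = 0.45) and 0.09 (interval -0.12 to 0.30, adjusted p = 0.465). Against B-4 alone, under the fold limit, they gave 0.73 (adjusted p = 0.0129) and 0.46 (adjusted p = 0.0491), and against A-5 alone 0.06 and 0.32.

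Tef, the abundant PAR bZIP factor (ENSMUSG00000022389), did not pass the test. It read 164 CPM at 0 μM on day 5 and 235, 176 and 201 CPM at 100, 150 and 200 μM, all above the 0 μM library. On day 10 it read 156 CPM at 0 μM and 150, 165 and 175 CPM, on both sides of it. The log2 fold change was 0.19 (interval -0.09 to 0.46, adjusted p = 0.249). The untreated libraries read 233 CPM (A-5) and 248 CPM (B-4), at about the level of the 100 μM library of day 5.

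**Figure D3:**
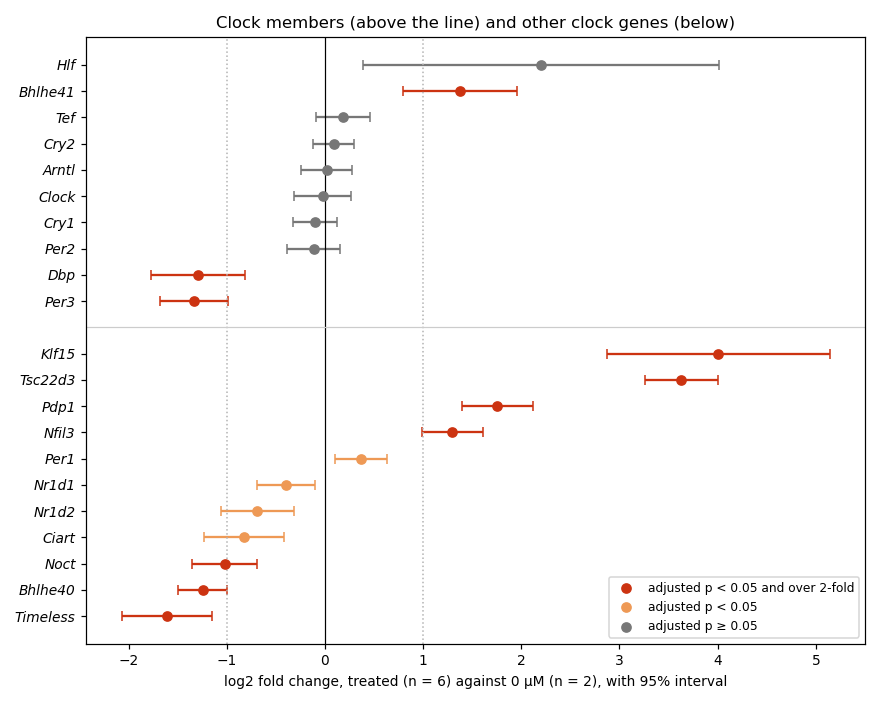
Fitted log2 fold change of treated cells (n = 6) against 0 μM (n = 2) for the 10 members (above the line) and for other clock genes (below the line). Points are edgeR estimates, bars are 95% intervals, dotted lines mark a 2-fold change, and colour gives the call. Per3 (-1.33) and Dbp (-1.29) lie to the left and Bhlhe41 (1.38) to the right, while the intervals of Arntl, Clock, Per2, Cry1, Cry2 and Tef include 0.

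Levels between genes were compared per transcript length, in the FPKM values of the authors. Over all 10 libraries Tef was highest, at 39.3 ± 7.58 FPKM (SD, n = 10), followed by Clock (15.0 ± 2.598), Bhlhe41 (9.63 ± 4.81), Arntl (8.10 ± 0.756), Cry1 (6.24 ± 0.939), Cry2 (4.68 ± 0.595), Per2 (4.23 ± 0.848), Per3 (3.05 ± 1.88), Dbp (1.89 ± 1.29) and Hlf (0.0216 ± 0.0151). Tef was above Clock, Arntl above Cry1, Cry1 above Cry2, Per3 above Dbp and Dbp above Hlf in 10 of 10 libraries. The order of the other neighbours changed between libraries: Clock exceeded Bhlhe41 in 8, Bhlhe41 exceeded Arntl in 7, Cry2 exceeded Per2 in 8 and Per2 exceeded Per3 in 7 of 10 libraries. At 0 μM the mean FPKM of Bhlhe41 was 4.10, below Arntl at 8.19, and in treated cells it was 10.3 ± 2.68 (SD, n = 6), above Arntl at 7.91 ± 0.759.

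Within each day the treated libraries were set against the 1 library at 0 μM of that day, which was assumed to vary as the treated libraries do, so these fits are a split of the same data and no repeat of the main test. On day 5, 1 of 10 members was called higher (8.93% of 17799 genes) and 2 lower (4.35%), and on day 10, 1 was called higher (11.2%) and 2 lower (5.78%). Per3 had a log2 fold change of -1.35 (SE 0.23, adjusted p = 0.00298) on day 5 and -1.32 (SE 0.23, adjusted p = 0.00246) on day 10. Dbp had -1.08 (SE 0.29, adjusted p = 0.0267) and -1.51 (SE 0.29, adjusted p = 0.00438), and Bhlhe41 1.02 (SE 0.32, adjusted p = 0.045) and 1.78 (SE 0.34, adjusted p = 0.00366). The differences between days were 0.03 for Per3 (interval -0.74 to 0.80), -0.43 for Dbp (-1.41 to 0.55) and 0.76 for Bhlhe41 (-0.20 to 1.72). Per2 turned from 0.09 on day 5 to -0.32 on day 10, a difference of -0.41 (interval -0.90 to 0.08, adjusted p = 0.669). None of the 10 members passed the edgeR test of the difference between days, 0 had an unadjusted p under 0.05 and DESeq2 called 0, beside 0.0112% of all genes called.

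Within treated cells, day 10 was compared with day 5, and 9 members could be tested (Hlf was filtered out). Per2 averaged 23.4 ± 1.90 CPM (SD, n = 3) on day 10 and 29.2 ± 2.50 CPM (SD, n = 3) on day 5. Its log2 difference was -0.32 (unadjusted p = 0.0159 in edgeR, adjusted p = 0.16). Tef read 163 ± 12.6 CPM on day 10 and 204 ± 29.6 CPM on day 5, a difference of -0.32 (unadjusted p = 0.0239 in edgeR, adjusted p = 0.192). The highest Tef value of day 10 (175 CPM) nearly met the lowest of day 5 (176 CPM). Dbp differed by -0.49 (adjusted p = 0.332) and Bhlhe41 by 0.44 (adjusted p = 0.311). In edgeR 0 of the 9 members passed after adjustment, beside 333 genes higher and 115 lower on day 10 among 16020, and 2 members had an unadjusted p under 0.05. With the 2-fold limit added, edgeR and DESeq2 each called 0 members, and edgeR called 1.05% of all genes. Differences as small as those of Per2 and Tef could not pass that limit.

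No member passed the test of a trend with dose from 100 to 200 μM. The slope per 50 μM was 0.08 for Per3 (interval -0.19 to 0.35), 0.08 for Dbp (-0.29 to 0.45) and -0.13 for Bhlhe41 (-0.41 to 0.15) on the log2 scale. By edgeR and by DESeq2, 0 of 10 members passed, 0 had an unadjusted p under 0.05 in edgeR, and 0.006% of 16664 genes were called. On day 10 the 100 μM library held the extreme value of all 3 changed members: against 0 μM of that day Per3 was 3.41-fold lower, Dbp 3.85-fold lower and Bhlhe41 4.56-fold higher. At 150 μM on day 10 these values were 2.06-fold, 2.37-fold and 2.27-fold, with 1 library each.

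**Figure D4:**
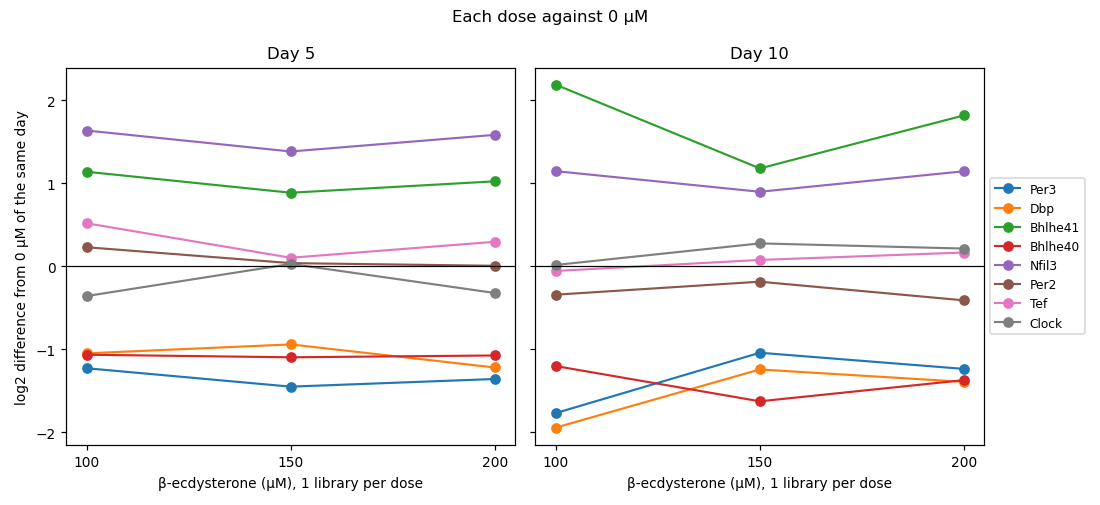
Difference of each dose from the 0 μM library of the same day (log2, y axis) against the β-ecdysterone dose in μM (x axis), for day 5 (left) and day 10 (right). Each point is 1 library, lines join the points of 1 gene, and 0 means no difference. Per3 and Dbp lie below 0 and Bhlhe41 above at each dose, with the 100 μM library of day 10 farthest out for all 3, and Per2, Tef and Clock stay nearer to 0.

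The partners of the members were read from a list of 46 other clock genes, of which 42 were tested. Of these 4 were called higher and 3 lower (background 13.4% and 5.98%), and without the fold limit 10 rose and 12 fell (background 22.6% and 20.8%). Among the 10 tested repressors and activators outside the members, 2 rose and 6 fell at that limit. Their median log2 fold change was -0.54 against 0.0456 over all genes. These 10 include Timeless and Tipin, which averaged 80.8 and 38.3 CPM at 0 μM and 27.9 and 21.6 CPM in treated cells. The part of the lower proliferation markers in this median was not tested. Among 16 kinases, ligases and other regulators of clock proteins 2 rose and 2 fell, and among 16 tested output genes 6 rose and 4 fell.

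Bhlhe40, the closest relative of Bhlhe41, fell while Bhlhe41 rose. It read 72.3 CPM (day 5) and 83.8 CPM (day 10) at 0 μM and 27.1 to 36.4 CPM in treated cells, a log2 fold change of -1.24 (SE 0.11, adjusted p = 3.07e-05). A-5 read 69.4 CPM and B-4 51.3 CPM, with -1.06 against A-5 alone (adjusted p = 0.00162) and, under the fold limit, -0.63 against B-4 alone (adjusted p = 0.0193) and -0.87 against both (adjusted p = 0.00376). In FPKM the ratio of Bhlhe41 to Bhlhe40 was 0.219 and 0.146 at 0 μM, 0.822 to 1.52 in treated cells, 0.325 in A-5 and 1.37 in B-4. The treated range did not overlap the 0 μM values. That separation follows from Bhlhe41 and Bhlhe40 each being apart from 0 μM in opposite directions, and is no further result.

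Nfil3, the D-box repressor, rose while the D-box activator Dbp fell. Nfil3 read 20.4 and 22.1 CPM at 0 μM and 41.3 to 63.7 CPM in treated cells, a log2 fold change of 1.30 (SE 0.14, adjusted p = 8.4e-05). A-5 read 9.07 CPM and B-4 21.6 CPM for Nfil3, both below all treated values. The FPKM ratio of Nfil3 to Dbp was 3.13 and 3.59 at 0 μM and 16.1 to 31.8 in treated cells, with 0.841 in A-5 and 6.09 in B-4. The ratio of Tef to Dbp, both activators, was 12.1 in each 0 μM library and 25.0 to 45.4 in treated cells. Per2 and Per3, which stood near equality at 0 μM (0.908 and 0.935), parted to 1.65 to 2.57 in treated cells, while A-5 had 0.857 and B-4 1.29.

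**Figure D5:**
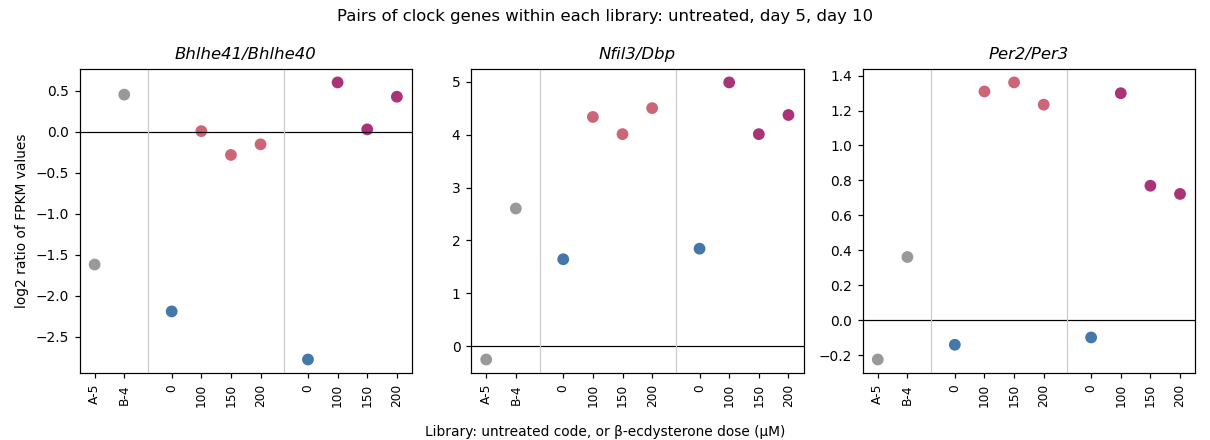
Log2 ratio of FPKM values (y axis) within each library for Bhlhe41 to Bhlhe40, Nfil3 to Dbp and Per2 to Per3. The x axis lists the untreated libraries A-5 and B-4 and the β-ecdysterone dose in μM on day 5 and day 10, with 1 point per library and a line at a ratio of 1. All treated points lie above both 0 μM points in each panel, which restates the changes of Bhlhe41, Bhlhe40, Nfil3, Dbp and Per3. B-4 lies among or towards the treated points.

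Of the other period gene and the nuclear receptors of the second loop, Per1 rose by 0.37 (adjusted p = 0.0296), from 135 and 131 CPM at 0 μM to 145 to 205 CPM while Per3 fell. Nr1d1 (REV-ERBα), a repressor of Arntl, changed by -0.40 (adjusted p = 0.0338) and Nr1d2 (REV-ERBβ) by -0.69 (adjusted p = 0.00819) while Arntl did not pass the test. Ciart, another repressor of the activator pair, changed by -0.82 (adjusted p = 0.00532). These 4 stayed under the 2-fold limit, and with single libraries left out their adjusted p rose to 0.292 (Per1) and 0.0988 (Nr1d2) without 0 μM of day 5, and to 0.186 (Nr1d1) and 0.0542 (Ciart) without 0 μM of day 10. Against A-5 and B-4 together Per1 gave 0.44 (adjusted p = 0.178) and Ciart -0.61 (adjusted p = 0.143), and against A-5 alone they gave 0.90 (adjusted p = 0.0184) and -0.96 (adjusted p = 0.0388). Against B-4 alone they gave 0.11 (adjusted p = 0.724) and -0.11 (adjusted p = 0.824). Nr1d2 gave -1.24 against A-5 alone (adjusted p = 0.00483) and -0.27 against B-4 alone (adjusted p = 0.441). Npas2, the relative of Clock, had 0 to 4 counts per library and was not tested.

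The other called genes of the list were Tsc22d3, Klf15 and Pdp1 among the higher and Timeless and Noct among the lower. Tsc22d3 rose by 3.63 (adjusted p = 7.82e-07), and Klf15, a transcription factor of metabolism that glucocorticoids also induce, by 4.01 (adjusted p = 0.000217), from 0.178 and 0.0632 CPM to 1.33 to 3.15 CPM. The 0 μM values of Klf15 rest on 9 and 2 counts, the second under the floor of 3 counts, and its log2 fold change was 5.19 without the 0 μM library of day 5, 3.41 without that of day 10 and 0.80 with limma on log2(FPKM + 1), under the fold limit. Pdp1, a pyruvate dehydrogenase phosphatase, rose by 1.76 (adjusted p = 3.42e-05). Timeless, whose protein acts at the replication fork, fell by 1.61 (adjusted p = 0.000229) along with the proliferation markers, and Noct (nocturnin) fell by 1.02 (adjusted p = 0.000463), at the fold limit, with -0.96 and -0.97 when the 100 μM library of day 5 or of day 10 was left out. The controls labelled untreated disagreed for these genes. Tsc22d3 gave 3.47 against A-5 alone (adjusted p = 4.71e-05) and -0.05 against B-4 alone (adjusted p = 0.863). Pdp1, at 70.3 CPM in A-5 and 139 CPM in B-4 beside 99.3 to 183 CPM in treated cells, gave 1.04 (adjusted p = 0.0612) and 0.06 (adjusted p = 0.92). Klf15 gave 2.72 (adjusted p = 0.0113) and 3.69 (adjusted p = 0.00641), and so kept its call against each. Timeless gave -0.18 (adjusted p = 0.759) and 2.97 (adjusted p = 0.0051), and Noct 0.34 (adjusted p = 0.34) and 0.51 (adjusted p = 0.165).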

How the data were processed

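The authors sequenced poly(A) mRNA from MC3T3-E1 cells and deposited 1 table with whole read counts per gene, not normalized, and FPKM values per gene for 10 libraries. The submitters' processing notes name HISAT2 2.0.4 and GATK 3.2-2 without a role. The counting program, genome build and annotation are not given in the sources used here. A further 39 columns with the authors' own comparisons (p-values, fold changes and calls) were not used.

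The 8 libraries with a dose were fitted with edgeR 4.0.16 (R 4.3.3) by the quasi-likelihood test on counts, with TMM normalization, filterByExpr, day as a covariate and Benjamini-Hochberg adjustment over all genes tested. Calls required an adjusted p under 0.05 and a change above 2-fold, the limits the study used. A model with 4 groups gave the effects per day, their difference and the within-day intervals. Treated day 10 against day 5 and the slope per 50 μM were fitted on the 6 treated libraries. The CPM values printed use TMM factors over all 10 libraries. Levels were compared between genes in the deposited FPKM values. DESeq2 1.42.0 and limma 3.58.1 on log2(FPKM + 1) were alternatives, beside other scalings, filters, covariates, controls and each library left out in turn. The fits with A-5 or B-4 alone as the control were chosen after seeing the data. Tables and figures were made with pandas 2.3.3, numpy 2.4.6 and matplotlib 3.10.9. The fits were tested on simulated data.

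Doses served as replicates. Each dose and day has 1 library. The methods of the study give n = 3 for the RNA extraction without saying whether a library pools 3 cultures. The p-values therefore measure only the spread between these libraries. Floors of 3 counts cover counting error only. The named genes are all 10 members, Per1, Npas2, Nr1d1, Nr1d2, Bhlhe40, Nfil3 and Ciart whatever their values, and up to 5 called genes per direction of the wider list. Sphk2 and Gm43909 were named after their overlap with members was seen. The members and lists were chosen with earlier results of these data known. Gene positions are from GENCODE M21 (GRCm38), promoters from RefSeq (GRCm38.p6).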

Additional observations from a re-analysis of the deposited data

How the results depend on the processing

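Per3 kept its call in 20 of 21 alternatives, losing it with B-4 alone as the control. Dbp kept its call in 19 and Bhlhe41 in 17 of these 21. Most of the alternatives kept the 0 μM libraries as the controls. Of the members, 2 in place of 1 were called higher with DESeq2 size factors in edgeR and with Ensembl genes only, both times by Hlf reaching the threshold (adjusted p 0.05 and 0.0448), and 0 were with A-5 and B-4 taken as controls, together, each alone, or beside 0 μM. With B-4 alone, a control chosen after seeing the data as was A-5 alone, 0 members were called lower, and 1 gene of the wider list. With limma on log2(FPKM + 1), 1 in place of 2 was called lower. Of the wider list, 10 rose and 12 fell without the fold limit, 2 and 0 with A-5 and B-4 together in place of 0 μM, and 2 and 1 with them added. Leaving out 1 library at a time gave 1 member higher and 2 lower each time, and 4 to 6 higher and 2 to 4 lower in the wider list. Log2 fold changes ranged from -1.40 to -1.26 for Per3, -1.51 to -1.08 for Dbp, 1.01 to 1.78 for Bhlhe41, -0.0266 to 0.0757 for Arntl, -0.21 to 0.17 for Clock and -0.31 to 0.0874 for Per2 in these fits, so the last 3 have no settled sign. Arntl also changed sign with library totals (-0.0383, and -0.0461 on day 10), limma (-0.0474) and untreated libraries in place (-0.086) or added (-0.0266), and Clock with a minimum of 10 counts (0.0286) and Ensembl genes only (0.0175). With untreated libraries in place or added, Cry1 gave 0.35 and 0.12 and Tef -0.39 and -0.12, and in place Bhlhe41 gave -0.28, Timeless 0.66 and Noct 0.41. With A-5 alone, Arntl gave -0.18, Cry1 0.064, Tef -0.33 and Noct 0.34, and with B-4 alone, Per2 gave 0.0986, Cry1 0.73, Tef -0.42, Bhlhe41 -0.88, Timeless 2.97, Noct 0.51 and Tsc22d3 -0.0459. With library totals on day 10 Cry2 gave -0.0285 and Tef -0.0391. With windows of 250 bases before the start only, AGGTCA was found in 1 member in place of 2. The counts of 0 for the day difference, the time and the dose comparisons stayed at 0 in all alternatives run. No paired analysis was possible because the labels carry no replicate numbers. Days were matched by dose only in the fit of time with dose as a factor, which called 0 members. Keeping every gene with at least 1 count moved the median of all genes to 0.27. The depth limits Hlf, with 0 to 12 counts per library. The causes were not tested.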
